A study of Homo sapiens with 5 samples.

Results

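The EGF receptors and ligands measured here are 9 genes, 3 receptors (EGFR, ERBB2 and ERBB3) and 6 ligands (HBEGF, TGFA, AREG, EREG, BTC and NRG1). They were chosen by gene symbol and not by a cut on any measured value, although earlier results of these data were known. All 9 are among the 26485 genes of the deposited count table. Poly-A RNA was sequenced from RPE1, a human cell line of retinal pigment epithelial origin labelled wild type, after 18 h in DMSO, the solvent of the drug (2 libraries), in 0.2 μM doxorubicin (2 libraries) or in 0.34 μM doxorubicin (1 library). Doxorubicin is an anthracycline that poisons topoisomerase II and causes DNA double-strand breaks. The concentrations are those of the labels of each sample, while the general protocol text attached to the samples gives far higher ones. The study treated the 3 doxorubicin libraries as 1 group, and the same was done here.

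The receptors of this family are tyrosine kinases that sit in the plasma membrane and work in pairs. The ligands are made as membrane-bound precursors and are released by ADAM proteases, so a cell can stimulate itself or its neighbours. HBEGF, TGFA, AREG, EREG and BTC bind EGFR, while NRG1 binds ERBB3 and ERBB4. ERBB2 has no known ligand and serves as the preferred partner of the others, and ERBB3 has a weak kinase and signals mainly through its partner. The active receptors feed the RAS-ERK and PI3K-AKT relays, which drive growth, migration and survival in epithelial cells, including the retinal pigment epithelium.

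Counts on genes summed to between 23773061 and 36725345 per library. Levels are given as CPM, counts per 1000000 after TMM normalization, with factors between 0.975 and 1.04. The known p53 targets CDKN1A, MDM2, FAS and BBC3, used as a check of the treatment, were higher in every doxorubicin library than in DMSO, with CDKN1A at 276 ± 26.1 CPM in DMSO (SD, n = 2) and 2900 ± 500.4 in doxorubicin (SD, n = 3). Of these 4 genes, 3 passed the threshold described below, and FAS lay just outside it (log2 fold change 1.29, adjusted p = 0.0111 by the quasi-likelihood test of edgeR). Without DMSO replicate 2 CDKN1A lost its call (adjusted p = 0.0132 in edgeR), and MDM2 and BBC3 lost theirs without either DMSO replicate. The labelled cell type was checked against 10 markers of retinal pigment epithelium. KRT8 and KRT18 were high, MITF had 743 to 1503 and OTX2 601 to 887 counts per library, while RPE65 had at most 8, TYR at most 5, RLBP1 at most 3 and TTR at most 1 count in any library. BEST1, a channel of the mature tissue, had 26 and 14 counts without the drug and 86, 30 and 142 with it, and PMEL, a melanosome protein, 7 and 5 against 22, 32 and 46, with adjusted p-values of 0.0823 and 0.0264 in edgeR. The summed level of the 10 markers was 637 to 783 CPM in DMSO and 1050 to 1249 CPM in doxorubicin, most of it from the keratins KRT8 and KRT18. The summed level of 7 markers of other lineages was 0.992 and 3.25 CPM in DMSO and 2.05 to 6.07 CPM in doxorubicin, with CD3E at 0 in every library. Among them PTPRC, which encodes CD45 of blood cells, had 5 and 7 counts without the drug and 25, 53 and 72 with it, and a log2 fold change of 2.86, which passed in DESeq2 (adjusted p = 0.000957) but not in edgeR (adjusted p = 0.0212). CDH5, another of the 7, was higher in the libraries numbered 2, with 2 and 56 counts in DMSO, 4 and 69 at 0.2 μM and 5 at 0.34 μM. The part of these markers in the results was not tested. Both libraries numbered 2 stood apart in the immediate early genes. FOS was at 118 and 1.18 CPM in the DMSO pair, 127 and 0.291 CPM in the 0.2 μM pair and 50.3 CPM at 0.34 μM, and EGR1 at 355 and 4.27, 232 and 1.83, and 172 CPM. The number 2 comes from the labels, while libraries without a replicate number, among them that at 0.34 μM, were numbered 1 here. Since all conditions but 0.34 μM hold 1 library numbered 2, the comparison was repeated with the libraries numbered 1 only. This choice was made after these values were seen. In RNA from whole cultures, a change in RNA per cell and a change in the mix of cells cannot be told apart.

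RefSeq promoter windows (GRCh38.p14, 250 bases before to 50 bases after the start) were found for 7 of the 9 genes, but not for NRG1 or ERBB3. The 120 bases before the main start are printed for 4 ligands, because AREG and EREG are neighbours of which the first was detected and the second was not, and because HBEGF and TGFA were higher in every doxorubicin library. Each runs 5′ to 3′ on the strand of the gene, and capitals mark matches on either strand to a cAMP response element (TGACGTCA), a TATA box (TATAAA) or a GC box (GGGCGG).
AREG (chr4:74445016-74445135, plus strand): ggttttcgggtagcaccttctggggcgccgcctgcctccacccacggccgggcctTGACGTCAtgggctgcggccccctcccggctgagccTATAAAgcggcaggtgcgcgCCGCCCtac
EREG (chr4:74365025-74365144, plus strand): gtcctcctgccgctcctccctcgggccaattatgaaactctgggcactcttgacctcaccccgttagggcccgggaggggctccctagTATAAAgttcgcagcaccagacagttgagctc
HBEGF (chr5:140346604-140346723, minus strand): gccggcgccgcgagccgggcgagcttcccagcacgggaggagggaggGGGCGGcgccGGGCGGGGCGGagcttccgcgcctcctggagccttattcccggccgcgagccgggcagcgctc
TGFA (chr2:70553827-70553946, minus strand): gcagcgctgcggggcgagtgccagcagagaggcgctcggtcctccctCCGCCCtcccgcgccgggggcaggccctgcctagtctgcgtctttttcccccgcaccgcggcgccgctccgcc

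The AREG window held 1 cAMP response element, beginning at position -65 from the start, and 1 TATA box at position -29. The EREG window held a TATA box at position -32 and no cAMP response element. The HBEGF window held 5 GC boxes, of which 3 lie in the stretch shown, and the main TGFA window held 4, of which 1 is shown. Neither held a TATA box. Over all 35116 promoter windows of the same length, 1.85% held TGACGTCA, 11.5% held TATAAA and 45.0% held GGGCGG. An AP-1 site (TGANTCA), which 7.71% of the windows held, was found in the ERBB2 window and in an EGFR window at another annotated start. A p53 site of a single decamer, searched by its consensus and held by 6.63% of the windows, was in no window of the 7 genes searched. NRG1 and ERBB3 had no window to search. The matches describe the letters of these windows only.

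The genes lie at the following places on GRCh38. EGFR is on chromosome 7 (55019017 to 55211628), ERBB2 on chromosome 17 (39688094 to 39728658) and ERBB3 on chromosome 12 (56080108 to 56103505). Of the ligands, HBEGF is on chromosome 5 (140332843 to 140346603), TGFA on chromosome 2 (70447284 to 70553826) and NRG1 on chromosome 8 (31639245 to 32774046). The other 3 ligands lie together on chromosome 4 within 429 kb, with EREG at 74365145 to 74388749, AREG at 74445136 to 74455005 and BTC at 74744759 to 74794523. ERBB2 overlaps MIEN1, which had up to 1823 counts. The sources used here do not give the strand setting of the counting. How reads from the overlap with MIEN1 entered the ERBB2 counts is therefore not known. EGFR overlaps EGFR-AS1, with at most 7 counts in any library, and the transcripts of the table that overlap TGFA and NRG1 had 0 counts.

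The comparison of doxorubicin with DMSO asked how the cells responded to the drug. NRG1 was the member that passed the threshold, an adjusted p under 0.01 in edgeR's quasi-likelihood test over all 14187 genes that passed a filter on low counts. Of the 9 members, 8 passed this filter and EREG did not. Thus 1 of 8 members was called, and it was higher, where 4.02% of all tested genes were called in either direction and 1.29% were called higher. At an adjusted p under 0.05 there were 3 members, NRG1, TGFA and HBEGF (13.6% of all genes), and at an unadjusted p under 0.05 there were 6 (30.8% of all genes). The median log2 fold change of the 8 members was 1.23, against 0.01 over all tested genes. In 6 members the levels of the groups were disjoint, with 5 of them higher in doxorubicin (24.3% of all genes) and 1 lower (23.4%), where 47.7% of all genes were disjoint in either direction. DESeq2 on the same groups called 4 members, NRG1, TGFA, HBEGF and AREG, all of them higher, where it called 6.72% of all genes higher. With the libraries numbered 1 only, 1 in DMSO and 2 in doxorubicin, the log2 fold changes were 1.13 for NRG1, 2.23 for TGFA, 1.04 for HBEGF, 3.06 for AREG, 1.40 for ERBB3, 0.44 for ERBB2 and -0.64 for EGFR, each in the same direction as over all libraries, and 0.06 for BTC. The spread in that fit comes from the 2 doses alone and is assumed to hold for the lone DMSO library.

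**Figure D1:**
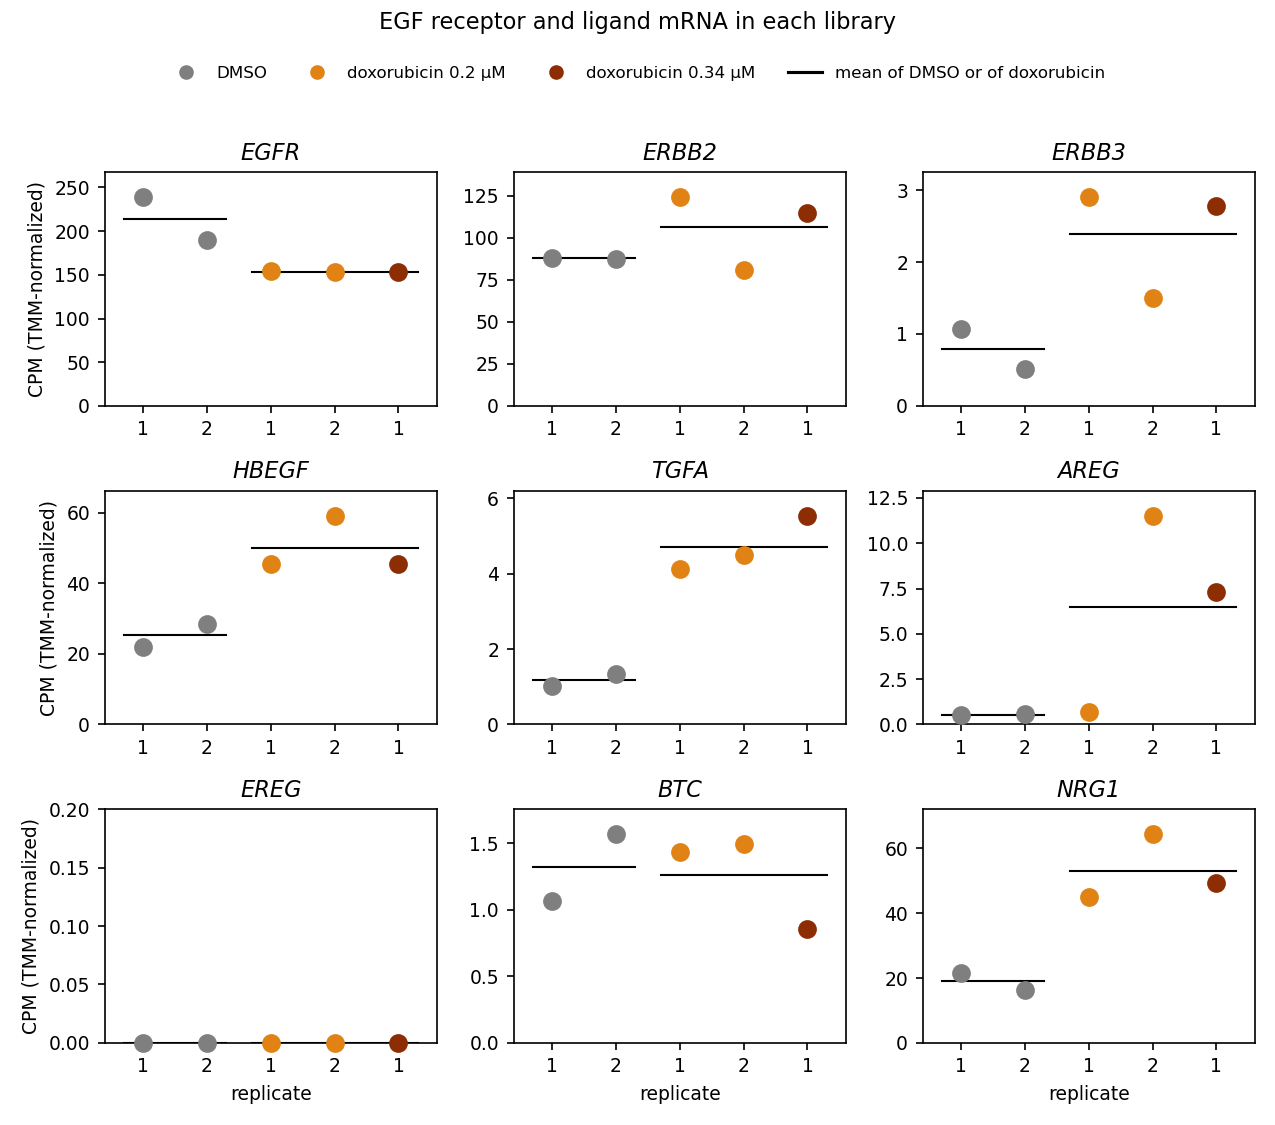
The level of each of the 9 genes in CPM (vertical axis, from 0, with its own scale in each panel) is plotted for the 5 libraries, with replicate numbers on the horizontal axis, grey points for DMSO, orange for 0.2 μM and brown for 0.34 μM doxorubicin, and lines for the means of the 2 DMSO and of the 3 doxorubicin libraries. The doxorubicin points of NRG1, TGFA and HBEGF lie above both DMSO points, those of EGFR lie below them near 153 CPM, and AREG is split, with replicate 1 of 0.2 μM beside DMSO.

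NRG1, neuregulin 1, is the ligand of ERBB3 and ERBB4. Its level was 21.6 and 16.5 CPM in DMSO (566 and 420 counts), 45.1 and 64.4 CPM at 0.2 μM (1167 and 1549 counts) and 49.4 CPM at 0.34 μM (1793 counts). The 3 doxorubicin libraries were at 2.37, 3.39 and 2.60 times the DMSO mean, and no library of one group reached the other. It rose from 19.0 ± 3.63 CPM (SD, n = 2) to 52.98 ± 10.1 CPM (SD, n = 3). The log2 fold change was 1.48 (standard error 0.23, 95% interval 0.93 to 2.02), with a Benjamini-Hochberg adjusted p of 0.00997 in edgeR's test. The call stood at the edge of the threshold. It was lost when any library was left out, DMSO replicate 1 or 2, replicate 1 or 2 of 0.2 μM or the 0.34 μM library, with log2 fold changes between 1.28 and 1.68 and adjusted p-values between 0.0220 and 0.0413 in edgeR.

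TGFA, transforming growth factor alpha, is a ligand of EGFR. It had 27 and 34 counts in DMSO, 107 and 108 at 0.2 μM and 201 at 0.34 μM, which are 1.03, 1.33, 4.14, 4.49 and 5.54 CPM. The 3 doxorubicin libraries lay close together, at 3.50, 3.80 and 4.69 times the DMSO mean. Doxorubicin over DMSO gave a log2 fold change of 2.00 (standard error 0.32, 95% interval 1.24 to 2.75) with an adjusted p of 0.0107 in edgeR's quasi-likelihood test, just outside the threshold. Without the filter on low counts the adjusted p in edgeR was 0.00492, and in DESeq2 it was 5.34e-06, so that both passed. With limma voom it was 0.0128.

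HBEGF, the heparin-binding ligand of EGFR and also the receptor of diphtheria toxin, had 22.0 and 28.4 CPM in DMSO (578 and 724 counts), 45.4 and 59.2 CPM at 0.2 μM (1175 and 1423 counts) and 45.5 CPM at 0.34 μM (1653 counts). Its lowest doxorubicin library was above its highest DMSO library. The means were 25.2 ± 4.46 CPM (SD, n = 2) and 50.0 ± 7.89 CPM (SD, n = 3). Its log2 fold change of 0.99 (standard error 0.21, 95% interval 0.50 to 1.48) had an adjusted p of 0.0252 in edgeR and did not pass the threshold, which it passed in DESeq2 (adjusted p = 0.000329).

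AREG, amphiregulin, is an EGFR ligand of low affinity. It had 13 and 14 counts in DMSO, 18 and 277 counts at 0.2 μM and 265 counts at 0.34 μM. In CPM these are 0.496 and 0.548 in DMSO, then 0.696, 11.5 and 7.30. Replicate 1 of 0.2 μM was at 1.33 times the DMSO mean, while replicate 2 of the same dose was at 22.1 times and the 0.34 μM library at 14.0 times. The 2 libraries of 1 dose thus differed by 16.5 times, the widest gap between replicates among these genes, against 1.11 times between the DMSO libraries. The fitted log2 fold change was 3.63 with a standard error of 1.11 (95% interval 0.97 to 6.28, adjusted p = 0.0771 in edgeR). Without replicate 1 of 0.2 μM it was 4.16 with an adjusted p of 0.00550 in edgeR, which passed the threshold. Without replicate 2 of that dose it was 2.95 with an adjusted p of 0.150, and without any 1 of the other libraries the adjusted p in edgeR was 0.163 to 0.233. With DESeq2 on all libraries the adjusted p was 0.000591, and with limma voom it was 0.280.

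BTC, betacellulin, which binds EGFR and ERBB4, had 28 and 40 counts in DMSO, 37 and 36 at 0.2 μM and 31 at 0.34 μM. Its groups overlapped, at 1.32 ± 0.353 CPM (SD, n = 2) and 1.26 ± 0.353 CPM (SD, n = 3). The log2 fold change was -0.07 with a 95% interval of -1.06 to 0.92, so that a halving was within what these counts allow. EREG, epiregulin, had 0 counts in each of the 5 libraries, which allows a level of up to 0.0827 to 0.125 CPM, taken as 3 counts per library and covering counting error only.

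EGFR is the receptor of EGF and of most of these ligands. Its level was 239 and 190 CPM in DMSO (6259 and 4840 counts), 155 and 153 CPM at 0.2 μM (4000 and 3684 counts) and 153 CPM at 0.34 μM (5544 counts). The 3 doxorubicin libraries lay close together, with an SD of 1.01 CPM, and all were below both DMSO libraries, which differed from each other by 1.26 times. The mean in doxorubicin was 71.7% of the mean in DMSO. In the fit, a log2 fold change of -0.48 (standard error 0.15, 95% interval -0.85 to -0.11) had an adjusted p of 0.0854 in edgeR, which did not pass the threshold, nor did 0.0242 in DESeq2.

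ERBB2, the partner receptor without a ligand, had 87.8 and 87.5 CPM in DMSO, 124 and 80.5 CPM at 0.2 μM and 114 CPM at 0.34 μM. Its groups overlapped, since replicate 2 of 0.2 μM lay below both DMSO libraries. The log2 fold change was 0.28 (standard error 0.21, 95% interval -0.21 to 0.77, adjusted p = 0.410 in edgeR).

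ERBB3, the receptor of NRG1 with the weak kinase, was low, with 28 and 13 counts in DMSO, 75 and 36 at 0.2 μM and 101 at 0.34 μM. These are 1.07, 0.509, 2.90, 1.50 and 2.78 CPM, and the groups did not overlap. The DMSO libraries differed by 2.10 times and the 0.2 μM libraries by 1.94 times. The log2 fold change was 1.60 (standard error 0.50, 95% interval 0.41 to 2.79) with an adjusted p of 0.0801 in edgeR and 0.0331 in DESeq2, and did not pass the threshold in either.

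**Figure D2:**
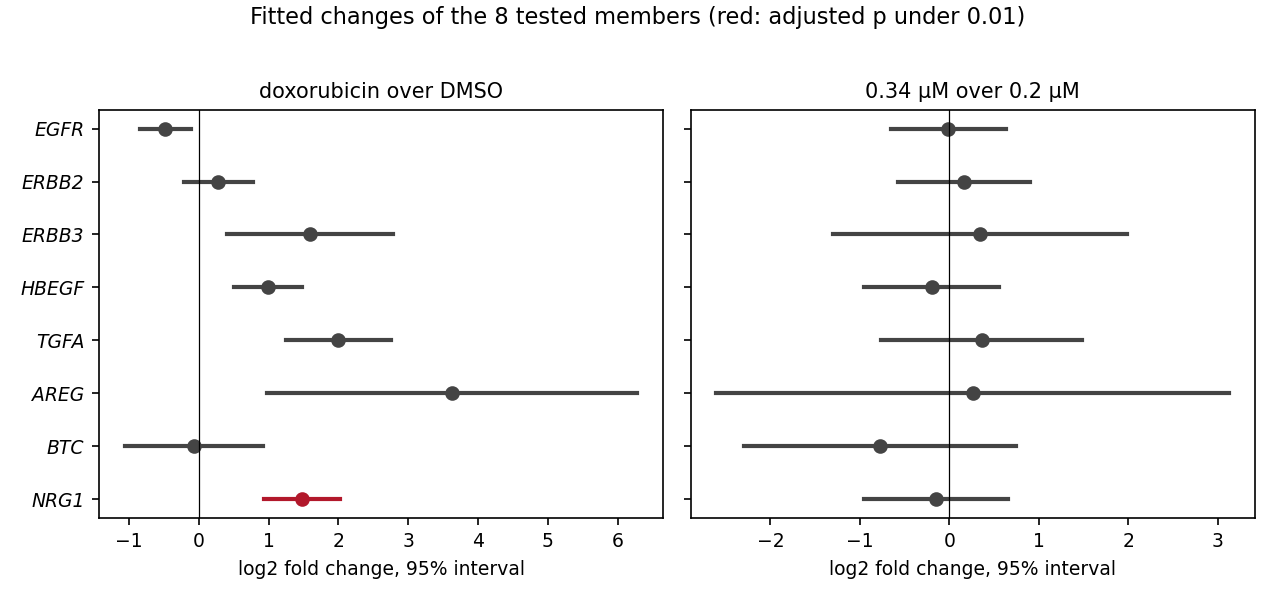
Log2 fold changes from edgeR (points) with 95% intervals (lines) are plotted for the 8 tested genes, doxorubicin over DMSO on the left and 0.34 μM over 0.2 μM on the right. On the left NRG1, in red, is the member past the threshold, and AREG has the widest interval, from 0.97 to 6.28. On the right every interval includes 0.

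Levels were compared between genes only per length, as CPM per kb of exon. The exon lengths are unions over transcripts of the GENCODE annotation, between 1.64 kb for AREG and 21.4 kb for NRG1, and not those of the authors' counting. In DMSO the receptor order was EGFR (13.4 ± 2.18 CPM per kb, SD, n = 2), ERBB2 (8.49 ± 0.0214) and ERBB3 (0.0673 ± 0.0337), and the libraries of neighbours did not overlap. In doxorubicin ERBB2 (10.3 ± 2.21, SD, n = 3) and EGFR (9.63 ± 0.0631) did not differ beyond their spread, with ERBB2 from 7.80 to 12.0 CPM per kb and EGFR from 9.58 to 9.70, and ERBB3 stood far below at 0.204 ± 0.0665. This rests on the length taken, since per kb of the longest transcript every ERBB2 library in doxorubicin (25.2, 16.3 and 23.2 CPM per kb) lay above every EGFR library (15.6, 15.5 and 15.4). EGFR made up 63.5% and 58.3% of the summed receptor level in the DMSO libraries and 44.2%, 54.8% and 45.8% in the doxorubicin libraries. The receptor sum itself, which leaves out ERBB4, was 23.6 and 20.4 CPM per kb in DMSO. In doxorubicin it was 22.0, 17.5 and 20.9, so the groups overlapped.

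Among the ligands HBEGF stood highest per kb in every library. In DMSO it was at 8.43 ± 1.49 CPM per kb (SD, n = 2), followed by NRG1 (0.890 ± 0.170), BTC (0.497 ± 0.133), AREG (0.318 ± 0.0226) and TGFA (0.240 ± 0.0434), with EREG at 0. In doxorubicin HBEGF was at 16.7 ± 2.64 (SD, n = 3), followed by AREG (3.96 ± 3.32), NRG1 (2.48 ± 0.474), TGFA (0.960 ± 0.148) and BTC (0.475 ± 0.133). In DMSO the libraries of neighbours in this order did not overlap, although TGFA, AREG and BTC rest on 13 to 40 counts a library, and per kb of the longest transcript AREG (0.402 and 0.444) and BTC (0.403 and 0.591) overlapped. In doxorubicin AREG ranged from 0.424 to 7.01 CPM per kb and overlapped with NRG1, TGFA and BTC, so its place in the order was not settled. The ligand sum is that of these 6 genes, without EGF, EPGN and NRG2 to NRG4. It was 9.30 and 11.4 CPM per kb in DMSO and 19.1, 31.3 and 23.4 in doxorubicin, without overlap. HBEGF made up 79.3% and 82.8% of it in DMSO and 79.5%, 63.2% and 65.0% in doxorubicin. HBEGF also stood highest per kb of the longest transcript, but its gap to NRG1 rests on their lengths, 2.99 and 21.4 kb by exon union. In CPM, not divided by length, the means of HBEGF and NRG1 were 25.2 and 19.0 in DMSO and 50.0 and 52.98 in doxorubicin. The share of AREG in the ligand sum was 3.25% and 2.92% in DMSO, 2.22% in replicate 1 of 0.2 μM, 22.4% in replicate 2 and 19.0% at 0.34 μM.

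**Figure D3:**
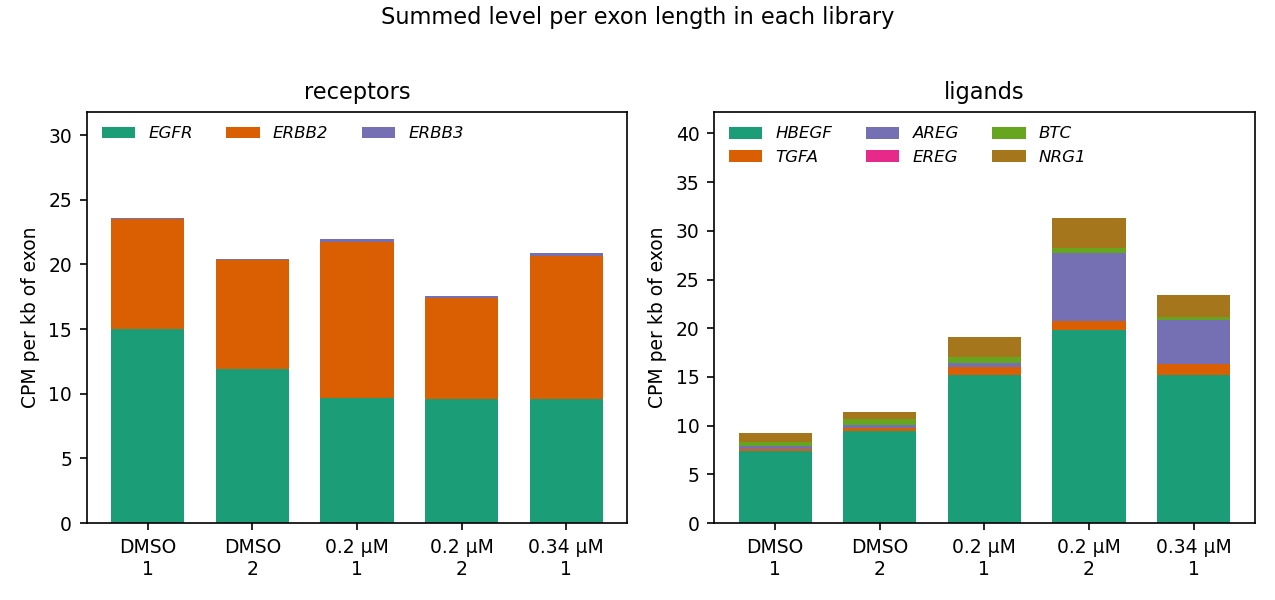
The stacked bars give the level per exon length (CPM per kb, from 0) of the 3 receptors on the left and the 6 ligands on the right in each of the 5 libraries, with replicate numbers under each condition. The ligand bars of the 3 doxorubicin libraries, at 19.1 to 31.3, are taller than those of DMSO, at 9.30 and 11.4, and are mostly HBEGF, while the receptor bars of the groups overlap.

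Between 0.34 μM and 0.2 μM doxorubicin, no member passed the threshold in edgeR, where 0% of all 14187 genes did, and 0 members had an unadjusted p under 0.05, against 22 genes in all (0.155%). DESeq2 and limma voom also called 0 members and 0 genes, with 26 and 14 genes at an unadjusted p under 0.05 and no member among them. The 0.34 μM dose had 1 library, so the spread in this test came from the replicate pairs of the other conditions. The log2 difference of 0.34 μM over 0.2 μM was -0.01 for EGFR (95% interval -0.66 to 0.64), -0.20 for HBEGF (-0.95 to 0.55), -0.15 for NRG1 (-0.95 to 0.65) and 0.16 for ERBB2 (-0.58 to 0.90). The low-count members had wider intervals, with TGFA at 0.36 (-0.76 to 1.48), ERBB3 at 0.34 (-1.31 to 1.98), BTC at -0.77 (-2.29 to 0.75) and AREG at 0.26 (-2.61 to 3.12). The intervals of all 8 members include 0 and do not show that the doses acted alike.

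The genes whose pattern over the 5 libraries was most like that of NRG1 were LOC728730, NLRP1, a sensor of the inflammasome, and FAM210B, at Euclidean distances of 0.143, 0.159 and 0.213 between centred log2 CPM profiles, out of 11756 genes whose log2 CPM averaged 1 or more. With 5 libraries these are descriptions only. NLRP1 had 19.5 and 13.7 CPM in DMSO and 39.2, 50.2 and 42.7 CPM in doxorubicin.

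The other genes of the pathway were followed in 6 lists, compiled from general knowledge with earlier results of these data known. Together they hold 68 genes, of which 65 were tested. RHBDF2 was called higher and FOSL1 lower, against 1.29% and 2.73% of all genes, and the median log2 fold change of the 65 was -0.16. DESeq2 called 6 higher and 7 lower, where it called 6.72% of all genes higher and 8.18% lower. An unadjusted p under 0.05 in edgeR, counted for each list below, was reached by 24 of the 65 genes and by 30.8% of all genes.

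Of the other receptors and ligands of the family, 4 of 6 were tested and 0 were called in edgeR, with 1 at an unadjusted p under 0.05, and DESeq2 also called 0. ERBB4, the second NRG1 receptor, had 1.91 and 1.80 CPM in DMSO and 2.13, 6.61 and 3.14 CPM in doxorubicin, with replicate 2 of 0.2 μM the highest, as for AREG. EGF, the founding ligand, had 2.98 and 3.33 CPM in DMSO and 1.97, 0.956 and 1.52 CPM in doxorubicin (log2 fold change -1.08, adjusted p = 0.104 in edgeR). The log2 fold change of NRG2, another neuregulin, was -0.89 (adjusted p = 0.178 in edgeR). EPGN had 0 counts in each library.

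RHBDF2 encodes iRhom2, which brings the sheddase ADAM17 to the cell surface. It rose from 14.1 and 16.8 CPM in DMSO to 45.6, 39.5 and 53.7 CPM in doxorubicin (log2 fold change 1.58, standard error 0.20, adjusted p = 0.00529 in edgeR). Its groups stood far apart, although the call was lost when any 1 of the 5 libraries was left out, whichever it was, with adjusted p-values between 0.0122 and 0.0291 in edgeR. It was the 1 called gene of 4 sheddases and cofactors, whose median log2 fold change was 0.51. The proteases themselves, ADAM10 and ADAM17, had log2 fold changes of 0.30 and 0.09 and were not called.

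In the list of receptor adaptors and the RAS-ERK relay, 0 of 18 genes were called in edgeR, with 4 at an unadjusted p under 0.05, and 1 was called in DESeq2. The median log2 fold change was -0.13. SHC1, an adaptor that docks on the phosphorylated receptors, had 425 and 494 CPM in DMSO and 806, 823 and 800 CPM in doxorubicin (log2 fold change 0.82, adjusted p = 0.0195 in edgeR and 2.76e-06 in DESeq2). For HRAS the log2 fold change was 0.68 (adjusted p = 0.0669 in edgeR). In the PI3K-AKT list, 0 of 11 genes were called in edgeR, with 3 at an unadjusted p under 0.05, and 1 in DESeq2, with a median of -0.24. For the regulatory subunit PIK3R3 the log2 fold change was -0.68 (adjusted p = 0.0392 in edgeR, 0.00334 in DESeq2) and for the catalytic subunit PIK3CD 0.77 (adjusted p = 0.0671 in edgeR).

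Of 16 feedback inhibitors and genes of receptor degradation, 15 were tested and 0 were called in edgeR, with 7 at an unadjusted p under 0.05, while DESeq2 called 1 higher and 3 lower. The median log2 fold change was -0.35, with 11 of the 15 below 0, where 6933 of all 14187 tested genes were below 0. SH3KBP1, an adaptor of CBL in receptor endocytosis, had 186 and 177 CPM in DMSO and 90.8, 108 and 83.9 CPM in doxorubicin (log2 fold change -0.94, adjusted p = 0.0127 in edgeR). LRIG3, a membrane protein of the LRIG family, had 13.9 and 11.3 CPM in DMSO and 23.4, 25.1 and 25.8 CPM in doxorubicin (log2 fold change 0.97, adjusted p = 0.0170 in edgeR). ERRFI1 and SPRY4, named after their values were seen, are induced by receptor signalling and inhibit it. Their log2 fold changes were -0.66 and -1.16, with adjusted p-values of 0.0258 and 0.0191 in edgeR, and both passed in DESeq2.

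Of 13 transcripts that ERK signalling is known to induce, FOSL1 was called lower and 0 were called higher in edgeR, while DESeq2 called 2 higher and 3 lower. The 2 were DUSP5 and EPHA2, and the 3 were FOSL1, ETV4 and ETV5. The log2 fold changes were -2.06 for ETV4, -0.70 for ETV5 and 0.71 for EPHA2, with adjusted p-values of 0.0579, 0.0505 and 0.0474 in edgeR. In edgeR 7 of the 13 were at an unadjusted p under 0.05, and the median log2 fold change was -0.25. In FOS and EGR1 the libraries numbered 2 were far below the others, as given above, and their log2 fold changes of -0.01 and -0.41 had standard errors of 1.87 and 1.78. FOSL1, a subunit of AP-1, fell from 509 and 466 CPM in DMSO to 139, 166 and 128 CPM in doxorubicin (log2 fold change -1.76, standard error 0.17, adjusted p = 0.00186 in edgeR). The call was lost without DMSO replicate 1, DMSO replicate 2, replicate 1 of 0.2 μM or the 0.34 μM library, with adjusted p-values of up to 0.0132 in edgeR. DUSP5, a phosphatase of nuclear ERK and also named after its values were seen, narrowly missed the threshold in edgeR and passed it in DESeq2. It had 11.9 and 17.4 CPM in DMSO and 38.5, 53.8 and 63.4 CPM in doxorubicin (log2 fold change 1.83, adjusted p = 0.0101 in edgeR and 3.93e-08 in DESeq2).

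**Figure D4:**
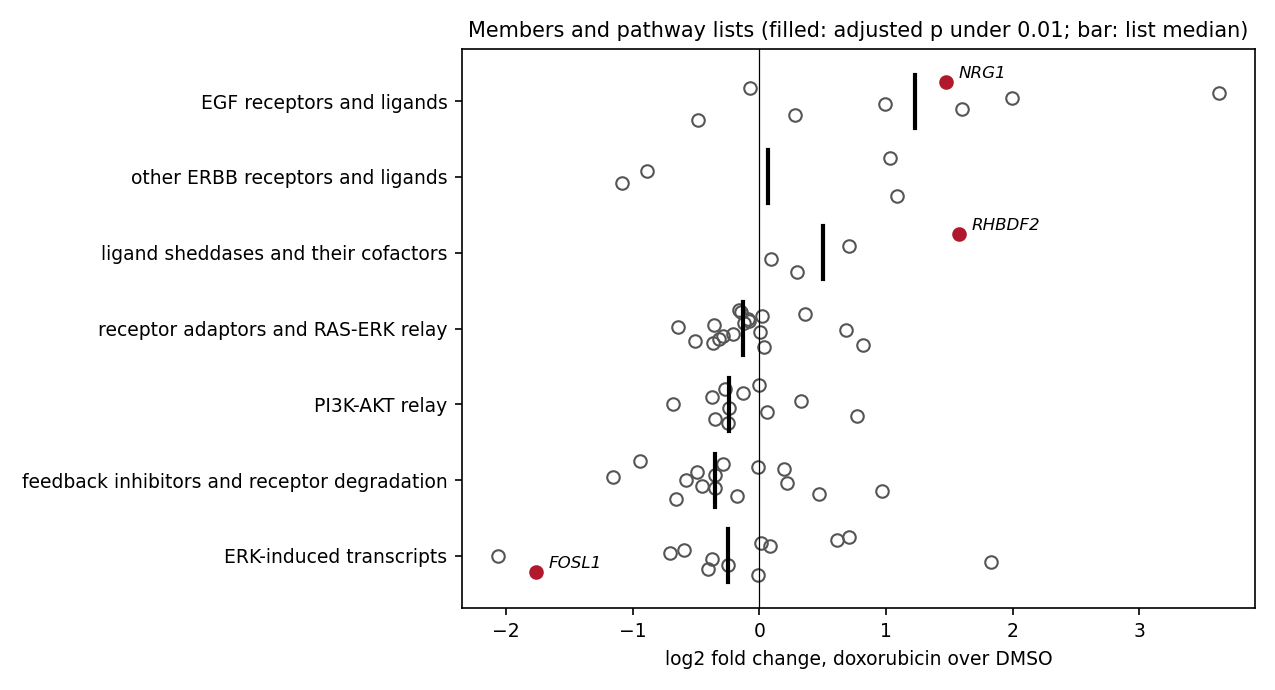
Each point is the log2 fold change of 1 tested gene, doxorubicin over DMSO (horizontal axis), in the EGF receptors and ligands and in 6 pathway lists (rows), with filled points for genes at an adjusted p under 0.01 and a bar at the median of each row. The median of the receptors and ligands is 1.23, those of the lists lie between -0.35 and 0.51, and the filled points are NRG1, RHBDF2 and FOSL1.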

How the data were processed

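Gene expression was measured in 5 libraries of RPE1 cells. The deposited table holds raw counts per gene. The authors had mapped paired-end reads with STAR to hg38 and assigned them to genes with featureCounts of Rsubread and the iGenomes annotation. The sources used here do not give versions, the strand setting or the handling of reads with several positions. A second deposited table holds fold changes and p-values of the authors' own comparison and was not used. Counts were fitted over the whole table in R 4.3.3 with edgeR 4.0.16 (TMM, default filter with a minimum count of 10 and minimum total of 15, quasi-likelihood test, Benjamini-Hochberg adjustment, threshold 0.01), with DESeq2 1.42.0 and limma 3.58.1 as alternatives. Standard errors are the absolute log2 fold change over the square root of F, and 95% intervals use the t distribution. CPM rest on TMM library sizes of the tested genes. The pipeline was tested on simulated data. The depth was 23773061 to 36725345 counts, and intervals and floors cover counting error only where so stated. The study calls the libraries biological replicates. A chi-square of the counts was 117 per degree of freedom in the DMSO pair and 75.3 in the 0.2 μM pair, so the libraries within each pair were not copies. It was not computed across conditions.

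Members, lists and rules were chosen with earlier results of these data known. Named genes are the members, 4 p53 targets, the genes called in each list (otherwise the 2 with the smallest p) and the 3 nearest profiles, plus DUSP5, SPRY4 and ERRFI1, chosen after seeing their values. Outside this rule ERBB4, EPGN, ADAM10, ADAM17, FOS, EGR1 and the cell type markers are named too. EPHA2, ETV4 and ETV5 are named because DESeq2 called them. Positions and promoters are from RefSeq (GRCh38.p14). Exon lengths are from GENCODE v44 lifted to GRCh37, used for lengths only. Alternatives were the tool, normalization, filter, threshold, dose grouping, length, each library left out, a replicate block and, added after seeing the data, the libraries numbered 1 only.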

Additional observations from a re-analysis of the deposited data

How the results depend on the processing

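The number of members past the threshold was 1 in edgeR and also 1 with RLE size factors. It was 4 with DESeq2, 0 with limma voom, 2 without the filter on low counts, 3 at an adjusted p of 0.05, and 0 when the 0.2 μM libraries alone were compared with DMSO in a fit of 3 conditions. With each library left out in turn it was 0 to 1, the 1 being AREG without replicate 1 of 0.2 μM. In the pathway lists the count was 2 in edgeR, 13 with DESeq2, 4 without the filter, 11 at 0.05 and 0 for 0.2 μM alone, and 0 to 1 with each library left out. Over all genes edgeR called 571, DESeq2 2073, edgeR without the filter 1020, and 49 to 215 with each library left out, 0.2 μM alone giving 171. With the libraries numbered 1 only, an alternative chosen after seeing the data, edgeR called 7 members, 36 genes of the pathway lists and 6214 genes in all. Its spread rests on 1 library of each doxorubicin dose, with a lone DMSO library assumed to vary like them, so these counts are no support for a call. The cause was not tested, except that fewer libraries enter the fits that leave one out. Of the members, BTC changed sign. Its log2 fold change was 0.15 for 0.2 μM alone, 0.062 in the libraries numbered 1 and 0.17 with the replicate block, and it ranged from -0.33 to 0.21 with each library left out. Every other tested member kept its direction under all 12 alternatives that refit the counts.

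The replicate numbers 1 and 2 are shared by DMSO and 0.2 μM, but the labels do not say that a number marks a common day or culture. The difference of replicate 1 from replicate 2 correlated between the 2 conditions with r = 0.53 over 14187 genes, which share libraries and are not independent. With the number as a replicate block, in the 4 libraries of DMSO and 0.2 μM, edgeR called 1249 genes, 4 members (NRG1, TGFA, HBEGF and AREG) and 4 genes of the pathway lists.

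Between the doses, 0 members were called under every alternative. The sign of the difference turned for EGFR without the filter (0.0098) and, with single libraries left out, for EGFR (range -0.015 to 0.027), ERBB2 (-0.11 to 0.54), ERBB3 (-0.056 to 0.92), HBEGF (-0.35 to 0.0069), AREG (-0.63 to 3.39) and NRG1 (-0.35 to 0.13). With the longest transcript in place of the exon union, EGFR made up 54.5% of the receptor level in DMSO and 41.9% in doxorubicin, and ERBB2 45.2% and 57.1%, and no ERBB2 library in doxorubicin overlapped with EGFR. The low counts of AREG, TGFA, BTC and ERBB3 limit their precision.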
